A study of Mus musculus with 5 samples.

Results

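The 9 genes described here are transcription factors and co-factors that define or maintain lineages of small cell lung cancer (SCLC): Insm1, Nkx2-1, Foxa1, Foxa2, Nfib, Prox1, Pou2f3, Yap1 and Neurog3. They were found by their symbols in the gene list of the count matrices and are 9 of 32589 genes. They were measured by single-cell RNA sequencing (scRNA-seq) of lung tumours of autochthonous SCLC mice, in which Cre recombinase from an inhaled adenovirus deletes Rb1 and Trp53. All mice carried floxed alleles of both genes (Rb1 fl/fl, Trp53 fl/fl) on a C57BL/6 background, were at least 6 weeks old at induction and grew tumours for about 6 months before therapy started. The adenovirus reaches the airway cells that inhale it, and no source used here names the promoter that drives Cre. Treatments were repeated every 3 days. The vehicle mouse received phosphate-buffered saline, the anti-PD-1 mouse an antibody against the T cell checkpoint receptor PD-1 at 10 mg/kg, the ERBB2i mouse the ERBB2 kinase inhibitor mubritinib at 10 mg/kg by mouth, and the combination mouse both agents at these doses. Each group is 1 library of 1 tumour sample, so no test between treatments is possible, and differences between treatments cannot be told apart from differences between mice and their tumour clones.

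Tumour cells were barcodes with at least 2 unique molecular identifiers (UMIs, each counting 1 captured RNA molecule) summed over the neuroendocrine genes Chga, Chgb, Scg3 and Uchl1, and with no UMI of Ptprc, which encodes the leukocyte antigen CD45. By this rule the vehicle library held 6978 tumour cells, the anti-PD-1 library 4988, the ERBB2i library 15725 and the combination library 17522, which is 45213 in all. The fifth library, labelled as the combination in response, held 0 tumour cells by this rule and entered no comparison.

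SCLC is a neuroendocrine cancer. Most tumours express the zinc finger factor Insm1, the lung identity factor Nkx2-1, the forkhead pioneer factors Foxa1 and Foxa2, and the homeobox factor Prox1. Nfib encodes a nuclear factor I protein that opens chromatin, and its locus is recurrently amplified in mouse SCLC. Rarer subtypes lack the neuroendocrine programme. Pou2f3 marks a tuft cell-like subtype, and the Hippo pathway co-activator Yap1 is typical of tumours with low neuroendocrine gene expression. Neurog3 is the factor that commits endocrine progenitors in pancreas and gut and is not part of the usual description of lung neuroendocrine cells.

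The proximal promoters of Neurog3 and Foxa1 are shown because Neurog3 was close to 0 in all libraries but the combination, and because Foxa1 lay below vehicle in both single-agent libraries and above it in the combination. RefSeq (build GRCm38.p6) gave promoters for 6 of the 9 members, each 250 bases before to 50 bases after an annotated start and printed 5′ to 3′ on the strand of the gene. Capitals mark E-boxes, the CANNTG motif read by basic helix-loop-helix factors such as Neurog3 itself.
Neurog3, chr10:62132840-62133139, plus strand: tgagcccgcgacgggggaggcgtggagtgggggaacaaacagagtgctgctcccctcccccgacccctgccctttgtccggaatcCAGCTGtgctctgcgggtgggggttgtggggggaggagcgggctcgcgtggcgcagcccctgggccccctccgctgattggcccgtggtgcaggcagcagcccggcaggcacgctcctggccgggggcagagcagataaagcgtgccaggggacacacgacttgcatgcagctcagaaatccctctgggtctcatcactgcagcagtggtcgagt
Foxa1, chr12:57546062-57546361, minus strand: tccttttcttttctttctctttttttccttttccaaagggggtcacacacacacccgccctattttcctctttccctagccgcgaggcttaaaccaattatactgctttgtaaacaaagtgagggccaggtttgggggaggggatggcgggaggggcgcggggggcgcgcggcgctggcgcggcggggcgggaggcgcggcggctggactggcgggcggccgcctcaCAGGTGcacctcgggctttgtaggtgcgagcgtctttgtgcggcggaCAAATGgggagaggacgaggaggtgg

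The Neurog3 promoter held 1 E-box, 165 bases before the start. It also held 1 match to the nuclear factor I half-site TTGGC, 88 bases before the start, and 0 to the forkhead motif TGTTTNC or the TATA box TATAAA. Foxa1 had 2 E-boxes, the first 23 bases before the start and the second 24 bases after it, and 1 forkhead match 141 bases before the start. Motifs were searched on both strands, and none of the matches in these promoters overlapped another. Among 32851 RefSeq promoters of the same 300 bases, 72.3% held an E-box, 46.7% the nuclear factor I half-site, 20.5% the forkhead motif and 13.6% the TATA box, so each of these motifs is shared by many promoters.

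The deposited libraries held 9718 to 27210 barcodes. Barcodes were 27 bases long in vehicle and anti-PD-1 and 24 bases in ERBB2i and the combination, so this difference in library design cannot be told apart from ERBB2 inhibition. ERBB2i and the combination shared 782 barcode sequences and vehicle and anti-PD-1 shared 77. Median UMIs per tumour cell were 6264.5 (vehicle), 3249 (anti-PD-1), 2769 (ERBB2i) and 3158 (combination), so shares of cells with a UMI are given after thinning every cell to 1000 UMIs. All 8 neuroendocrine check genes, Syp and Calca among them, were present in the tumour cells of every library, at a summed level of 2319 to 4808 UMIs per 1000000 (CPM). The T cell markers Cd3e, Cd3d, Cd3g, Trbc2, Cd8a and Cd4 summed to 1.26 CPM in the tumour cells of vehicle, 184 in those of anti-PD-1, 34.8 in those of ERBB2i and 11.8 in those of the combination, and 40.4% of anti-PD-1 tumour cells held a UMI of at least 1 of these 6 genes. RNA of T cell genes was therefore present in the tumour barcodes, most of all in anti-PD-1. Immune barcodes, with a Ptprc UMI and none of the 4 neuroendocrine genes, gave the background of each member. They were taken from all deposited barcodes, without the quality and doublet filters. They numbered 210, 4443, 2354 and 1859 in vehicle, anti-PD-1, ERBB2i and the combination. After the filters, 13, 4053, 2170 and 815 barcodes held a Ptprc UMI and fewer than 2 UMIs of the 4 genes. Most immune barcodes of vehicle and the combination had therefore failed a filter. Levels are UMIs summed over tumour cells per 1000000, with exact Poisson 95% intervals, and shares carry exact Clopper-Pearson 95% intervals. All intervals cover counting error only, and an observed order of libraries is given beside them without a test.

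**Figure D1:**
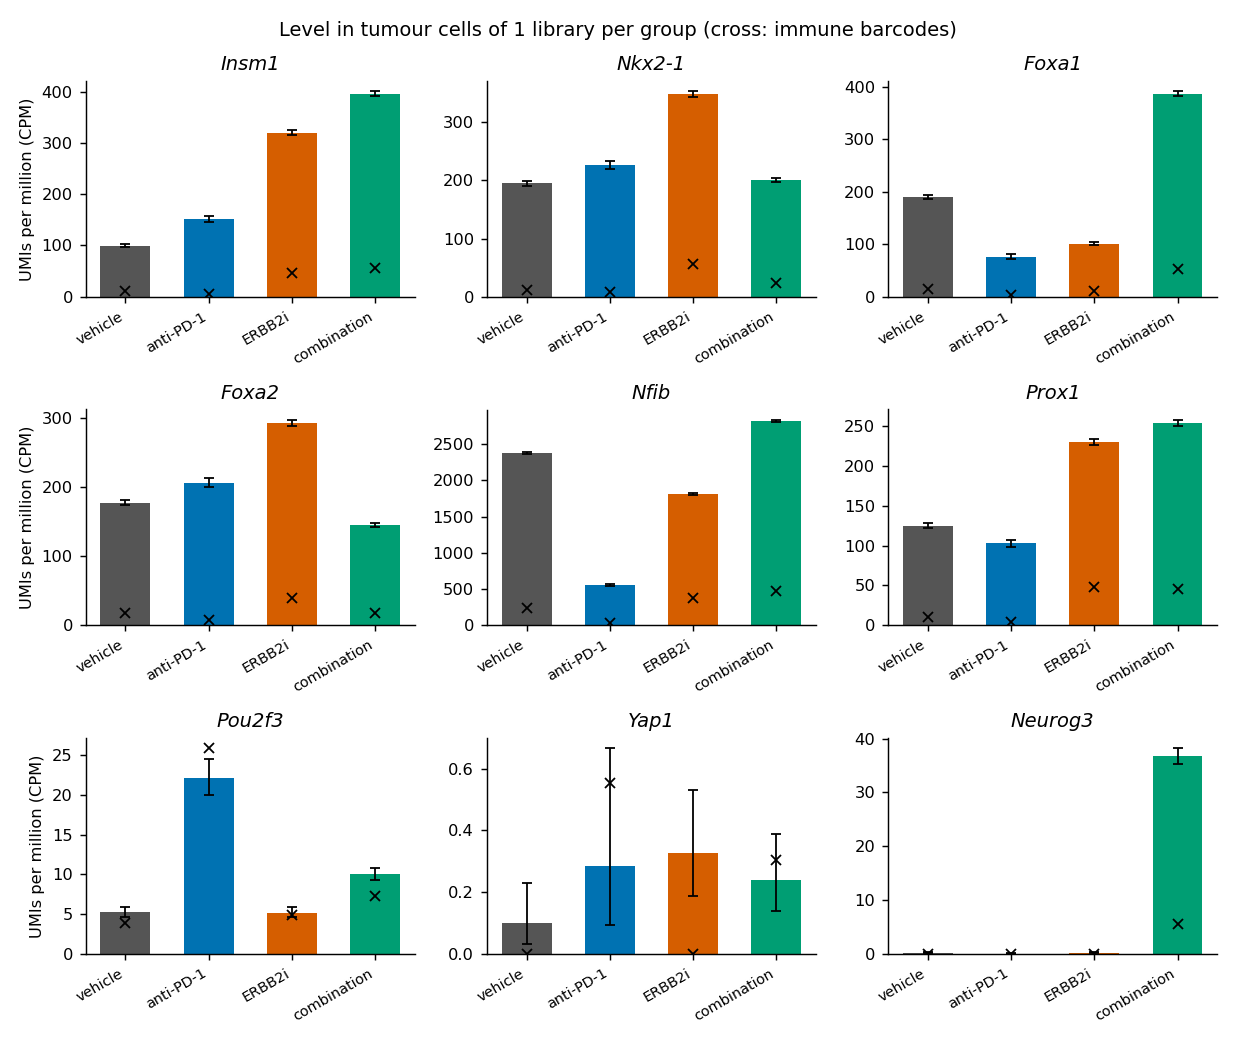
Level of each member in tumour cells, in UMIs per 1000000 (CPM, y axis, a separate scale for each gene), for the vehicle, anti-PD-1, ERBB2i and combination libraries (x axis). Bars are the summed level of 1 library, error bars are 95% counting intervals and crosses are the immune barcodes of the same library. Neurog3 stands at 36.7 CPM in the combination and at most 0.163 CPM elsewhere, and Nfib is lowest in anti-PD-1 at 558 CPM.

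Insm1 (chr2:146221997-146225020, GRCm38.p6), a zinc finger repressor needed for neuroendocrine differentiation, was lowest in vehicle and highest in the combination. Its level was 99.6 CPM (96.9 to 102) in vehicle cells, 151 (145 to 157) in anti-PD-1 cells, 320.2 (315 to 325) in ERBB2i cells and 396 (391 to 401) in combination cells. No interval overlapped another. The share of thinned tumour cells with an Insm1 UMI followed the same order, with 9.30%, 13.2%, 26.4% and 31.3%, against 42.1%, 35.1%, 53.1% and 64.9% before thinning. Immune barcodes were at 0.565%, 0.631%, 4.12% and 5.45%, so both libraries with 24-base barcodes also had the higher Insm1 background. In the tumour cells of the combination the gene most like Insm1 was Stmn1, which encodes a microtubule-destabilising protein, with a Pearson correlation of only 0.12 over 17522 cells that share 1 library. The polyubiquitin gene Ubb also had 0.12 there, and in the other 3 libraries neither gene was above 0.07.

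Nkx2-1 (chr12:56531935-56536908), the homeobox factor of lung identity, had the smallest fold between its highest and lowest library of the 9 members. It measured 195 CPM (191 to 199) in vehicle cells, 226 (219 to 233) in anti-PD-1 cells, 348 (342 to 353) in ERBB2i cells and 200.5 (197 to 204) in combination cells, and the intervals of vehicle and the combination overlapped. The thinned shares were 17.4%, 18.8%, 28.7% and 18.4%, against 64.0%, 47.2%, 56.4% and 47.1% unthinned. The ERBB2i library stood 1.78-fold above vehicle, and the other 3 libraries lay within 1.16-fold of each other. The genes most like Nkx2-1 in ERBB2i were the mitosis genes Cenpf, with a correlation of 0.13, and Ube2c, with 0.12, and the linker histone gene H1f0, with 0.13. In vehicle the same 3 genes had correlations of 0.16, 0.17 and 0.19.

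Foxa1 (chr12:57540628-57548029) and Foxa2 (chr2:148042877-148046969) encode related forkhead proteins that open closed chromatin in endoderm and lung. The 2 genes did not move together. Foxa1 measured 189 CPM (185 to 193) in vehicle cells, 76.4 (72.3 to 80.6) in anti-PD-1 cells, 101 (98.2 to 104) in ERBB2i cells and 387 (382 to 391) in combination cells. Each single agent was thus below vehicle and the combination above it. Foxa2 measured 178 CPM (174 to 181) in vehicle cells, 206 (199.8 to 213) in anti-PD-1 cells, 293 (288 to 298) in ERBB2i cells and 145 (143 to 148) in combination cells, and its order of libraries was nearly the reverse of that of Foxa1. In RefSeq, Foxa1 overlaps Ttc6, which measured 62.7, 25.7, 46.9 and 128 CPM in these libraries, with the same order of libraries as Foxa1, and reads that both genes share cannot be told apart here. The number of Foxa1 UMIs per Foxa2 UMI, a ratio within each library that does not depend on its total, was 1.06 (1.03 to 1.10) in vehicle cells, 0.370 (0.347 to 0.394) in anti-PD-1 cells, 0.345 (0.334 to 0.356) in ERBB2i cells and 2.66 (2.60 to 2.72) in combination cells. It was low in both single-agent libraries and highest in the combination. The shares of thinned cells gave the same picture. Foxa1 was seen in 16.8%, 6.73%, 9.33% and 31.6% of vehicle, anti-PD-1, ERBB2i and combination cells, and Foxa2 in 16.7%, 17.1%, 24.3% and 13.8%. Before thinning the shares were 62.8%, 21.0%, 24.0% and 65.1% for Foxa1 and 60.8%, 43.7%, 49.9% and 37.2% for Foxa2. In the combination the genes most like Foxa1 were Cd24a, with a correlation of 0.13, the simple epithelial keratin gene Krt8, with 0.12, and the epithelial adhesion gene Epcam, with 0.11. In the other 3 libraries the correlations of Cd24a and Epcam with Foxa1 were 0.038 or less, and Krt8 was seen in under 5% of cells. No gene reached a correlation of 0.1 with Foxa2 in ERBB2i, where Foxa2 was highest.

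Prox1 (chr1:190118035-190170827), a homeobox factor expressed in neuroendocrine and lymphatic cells, was higher in both libraries treated with ERBB2i. Its level was 125 CPM (122 to 128) in vehicle cells, 103 (98.0 to 108) in anti-PD-1 cells, 230.2 (226 to 235) in ERBB2i cells and 254 (250.4 to 258) in combination cells. The thinned shares were 11.97%, 9.30%, 20.6% and 23.5%, against 50.1%, 26.6%, 43.3% and 53.4% unthinned. Immune barcodes were at 10.4, 4.16, 47.5 and 45.7 CPM, so both libraries with 24-base barcodes also had the higher Prox1 background. Subtracting the immune level lowered the log2 ratio over vehicle from 0.88 to 0.68 in ERBB2i and from 1.03 to 0.87 in the combination. The antisense transcript Prox1os, which overlaps Prox1, measured 7.91, 26.8, 27.0 and 26.6 CPM in the same order and so did not follow Prox1 in anti-PD-1. No source used here says whether reads were counted by strand.

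Nfib (chr4:82290173-82506751) was lower in anti-PD-1 than in the other 3 libraries. It measured 2374 CPM (2361 to 2387) in vehicle cells, 558 (547 to 569) in anti-PD-1 cells, 1815 (1804 to 1827) in ERBB2i cells and 2825 (2812 to 2837) in combination cells. The anti-PD-1 library was 4.26-fold below vehicle and 5.07-fold below the combination. In thinned cells the share with a UMI was 80.6%, 40.7%, 78.4% and 87.3%, against 98.4%, 75.4%, 93.8% and 97.4% unthinned, and 37.9% of vehicle cells and 47.6% of combination cells held 3 or more UMIs against 2.92% of anti-PD-1 cells. The variance of its thinned count was 2.09 times the mean in vehicle cells, 1.17 in anti-PD-1 cells, 1.56 in ERBB2i cells and 2.26 in combination cells, and the highest thinned count of a single cell was 22, 7, 18 and 45. This ratio rises with the level of a gene and was lowest where Nfib was lowest. Its background was high where its level was high, with a UMI in 26.6%, 2.66%, 23.8% and 32.0% of thinned immune barcodes.

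**Figure D2:**
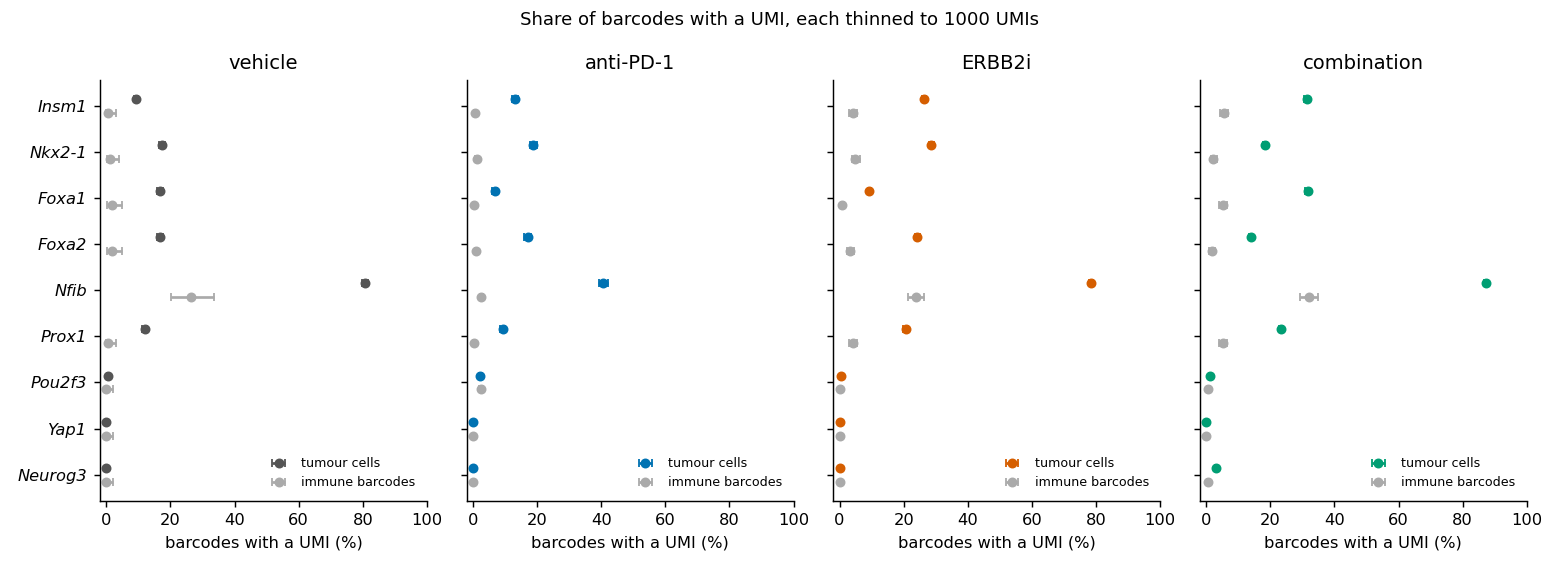
Share of barcodes with at least 1 UMI of each member (x axis, percent), after thinning every barcode to 1000 UMIs, in tumour cells (coloured) and immune barcodes (grey) of the 4 libraries (panels). Points are shares of 1 library and bars are exact 95% binomial intervals. Tumour cells lie well above immune barcodes for Insm1, Nkx2-1, Foxa1, Foxa2, Nfib and Prox1, and do not for Pou2f3 in anti-PD-1, at 2.29% against 2.39%.

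Over these 6 members, tumour cells stood 4.85-fold to 28.6-fold above the immune barcodes of their own library in CPM. Pou2f3 did not behave in this way. Pou2f3 (chr9:43123927-43205755), the master factor of tuft cells, measured 5.27 CPM (4.66 to 5.94) in vehicle cells, 22.2 (20.1 to 24.5) in anti-PD-1 cells, 5.19 (4.57 to 5.87) in ERBB2i cells and 10.0 (9.26 to 10.8) in combination cells. Anti-PD-1 was the highest library, and the intervals of vehicle and ERBB2i overlapped. In immune barcodes the level was 3.89, 25.9, 4.92 and 7.31 CPM, so tumour cells were 1.36-fold, 0.857-fold, 1.05-fold and 1.37-fold of the immune level, and in all 4 libraries the interval of this log2 ratio included 0. The thinned share was 0.464%, 2.29%, 0.485% and 1.06% of tumour cells against 0% (0 of 177, interval up to 2.06%), 2.39%, 0.252% and 0.636% of immune barcodes, and 3.64%, 7.28%, 1.58% and 3.66% of tumour cells unthinned. A Pou2f3 UMI in a tumour barcode could therefore not be told from background at this depth, and its higher level in anti-PD-1 was also present in immune barcodes. The 363 anti-PD-1 tumour cells with a Pou2f3 UMI before thinning held T cell markers at 138 CPM, against 188 in the 4625 without. The cells with and without were not matched for depth, and T cell RNA as a source of Pou2f3 was not tested. Of 14 tuft cell genes, 3 had enough UMIs to be compared between these cells and 0 differed by 2-fold. Between libraries, 1 of the 14 was higher and 3 were lower by 2-fold in anti-PD-1 against vehicle among 7 compared, beside 8.75% and 15.6% of all genes. Other tuft cell regulators were near the detection limit in every library. Ascl2 had 0, 1, 3 and 13 UMIs and Gfi1b 3, 0, 0 and 4 UMIs in vehicle, anti-PD-1, ERBB2i and the combination.

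Yap1 (chr9:7931999-8004638) was close to absent from these tumour cells, with 5, 5, 16 and 16 UMIs in all tumour cells of vehicle, anti-PD-1, ERBB2i and the combination. This is 0.0984 CPM (0.0319 to 0.230), 0.285 (0.0927 to 0.666), 0.327 (0.187 to 0.531) and 0.240 (0.137 to 0.389), with overlapping intervals between neighbours in the order. Tumour cells were chosen by neuroendocrine genes, so tumour cells low in these genes, as described above for Yap1 and Pou2f3, would be left out. After the filters, 131, 1744, 2524 and 2204 barcodes without a Ptprc UMI fell below the rule. Neither gene was examined in them. The paralog of Yap1, Wwtr1, which encodes the co-activator TAZ, had 8, 1, 3 and 33 UMIs in tumour cells. The DNA-binding partner Tead1, in contrast, was present at 121, 62.1, 220.5 and 158 CPM. Of 14 partners and targets of YAP in the table, 1 was higher and 3 were lower by 2-fold in anti-PD-1 against vehicle among 7 compared, beside 8.75% and 15.6% of all genes. In ERBB2i against vehicle 2 were higher and 0 lower of 7, beside 19.6% and 6.59%. In the combination 4 were higher and 2 lower of 9 against vehicle, beside 16.1% and 8.74%, 2 were higher and 3 lower of 9 against ERBB2i, beside 10.2% and 14.9%, and 6 were higher and 0 lower of 8 against anti-PD-1, beside 23.0% and 8.56%. The genes compared only where the combination took part reached the minimum of 50 UMIs through its counts. The target gene Ccn1 measured 2.13 CPM, 0, 4.00 and 0.764 CPM in vehicle, anti-PD-1, ERBB2i and the combination.

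Neurog3 (chr10:62133090-62134763) was detected in the combination and almost nowhere else. There were 6 UMIs in the tumour cells of vehicle, 0 in those of anti-PD-1, 8 in those of ERBB2i and 2452 in those of the combination. The combination reached 36.7 CPM (35.3 to 38.2), against 0.118 in vehicle, 0.163 in ERBB2i and an upper limit of 0.171 CPM that a count of 0 allows in anti-PD-1. On the log2 scale this was 8.28 above vehicle (7.16 to 9.73) and 7.81 above ERBB2i (6.83 to 9.03). Against anti-PD-1, with 3 counts per library taken as the floor, it was at least 214.5-fold higher. In all, 1692 combination tumour cells (9.66%) held a Neurog3 UMI, 505 of them held 2 or more and the highest cell held 8. The thinned share was 3.02% (2.77% to 3.29%) in tumour cells against 0.636% (0.256% to 1.31%) in immune barcodes, and in CPM tumour cells were 6.70-fold above immune barcodes. The transcript was spread over many cells and was not restricted to a few barcodes.

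In the GENCODE gene annotation Neurog3 lies wholly inside Fam241b, on the opposite strand, although RefSeq lists no overlap for it. Counting that ignores strand can drop reads that 2 genes share, so the 0 of anti-PD-1 and the low counts of vehicle and ERBB2i cannot be told apart from such a loss. Fam241b measured 28.8, 20.04, 24.3 and 69.3 CPM in vehicle, anti-PD-1, ERBB2i and the combination, and within the combination it was 105 CPM in cells with a Neurog3 UMI and 63.1 CPM in the others, a log2 difference of 0.73 (0.63 to 0.83). The host gene thus differed with Neurog3 but by far less. Other neurogenic factors had 0 UMIs in all 4 libraries. Among them, in GENCODE, Neurod1 overlaps Cerkl and Sox2 lies inside the long non-coding gene Sox2ot, each on the same strand. Shared reads could have been dropped there too, while RefSeq lists no gene that overlaps Neurod2, Neurog1 or Atoh1. Sox2ot itself measured 1.22, 9.93, 23.9 and 6.92 CPM.

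Cells of the combination with a Neurog3 UMI were deeper than the rest, with a median of 4921.5 UMIs against 3044. They held Krt8 at 925 CPM against 543 in the 15830 cells without, and the proliferation gene Mki67 at 486 against 859 CPM. The levels of the other 6 core members differed by 0.26 or less on the log2 scale between these cells.

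Against vehicle, the single agents moved few members by 2-fold. A gene was compared when it had at least 50 UMIs in the tumour cells of both libraries together. In anti-PD-1, 7 members were compared. Pou2f3 was higher by 2.07 on the log2 scale (1.85 to 2.30), where 8.75% of 14180 genes were higher by 2-fold, and Nfib fell by 2.09 (2.06 to 2.12) and Foxa1 fell by 1.31 (1.23 to 1.39), where 15.6% of all genes were lower. Among the 7, 1 higher and 2 lower members is thus not far from the share over all genes. In ERBB2i, Insm1 was higher by 1.68 (1.64 to 1.73) and was the only one of 7 members past 2-fold in the higher direction, where 19.6% of 15364 genes were. No member was lower by 2-fold, where 6.59% of genes were, although Foxa1 came near with a log2 ratio of -0.91 (-0.95 to -0.86). Prox1, with 0.88, and Nkx2-1, with 0.84, lay just under 2-fold.

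The combination had more members above vehicle. Neurog3 passed the minimum of UMIs through the combination alone, in this and in the following comparisons, and is left out of their counts and medians. Of the other 7 members compared, 3 were higher by 2-fold, where 16.1% of 15545 genes were, and 0 were lower, where 8.74% of genes were. Insm1 had a log2 ratio of 1.99 (1.95 to 2.03), and Foxa1 with 1.03 (1.00 to 1.07) and Prox1 with 1.03 (0.98 to 1.07) lay at the limit. TMM scaling, an alternative normalisation, moved the last 2 to just under 2-fold. The median over the 7 members was 0.92 against 0.06 over all genes.

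Adding anti-PD-1 to ERBB2i was compared in the combination against the ERBB2i library. Of 7 members, 1 was higher by 2-fold, Foxa1 with 1.94 (1.89 to 1.98), where 10.2% of 15947 genes were higher by 2-fold. Foxa2 fell by 1.01 (0.97 to 1.05), where 14.9% of genes were lower. The Foxa2 value lay at the limit of 2-fold and ranged from -1.04 to -0.84 over the processing alternatives. Insm1, with 0.31, and Prox1, with 0.14, hardly differed between these 2 libraries, which share the 24-base barcode design.

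Adding ERBB2i to anti-PD-1 was compared in the combination against the anti-PD-1 library. Of 7 members, 4 were higher by 2-fold, where 23.0% of 15040 genes were. These were Nfib with 2.34 (2.31 to 2.37), Foxa1 with 2.34 (2.26 to 2.42), Insm1 with 1.39 (1.33 to 1.45) and Prox1 with 1.31 (1.24 to 1.38). Pou2f3 fell by 1.15 (0.97 to 1.33), where 8.56% of genes were lower. The comparisons share libraries, so Foxa1, Nfib and Pou2f3 differ in this comparison in part because the anti-PD-1 library itself stood apart from vehicle.

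**Figure D3:**
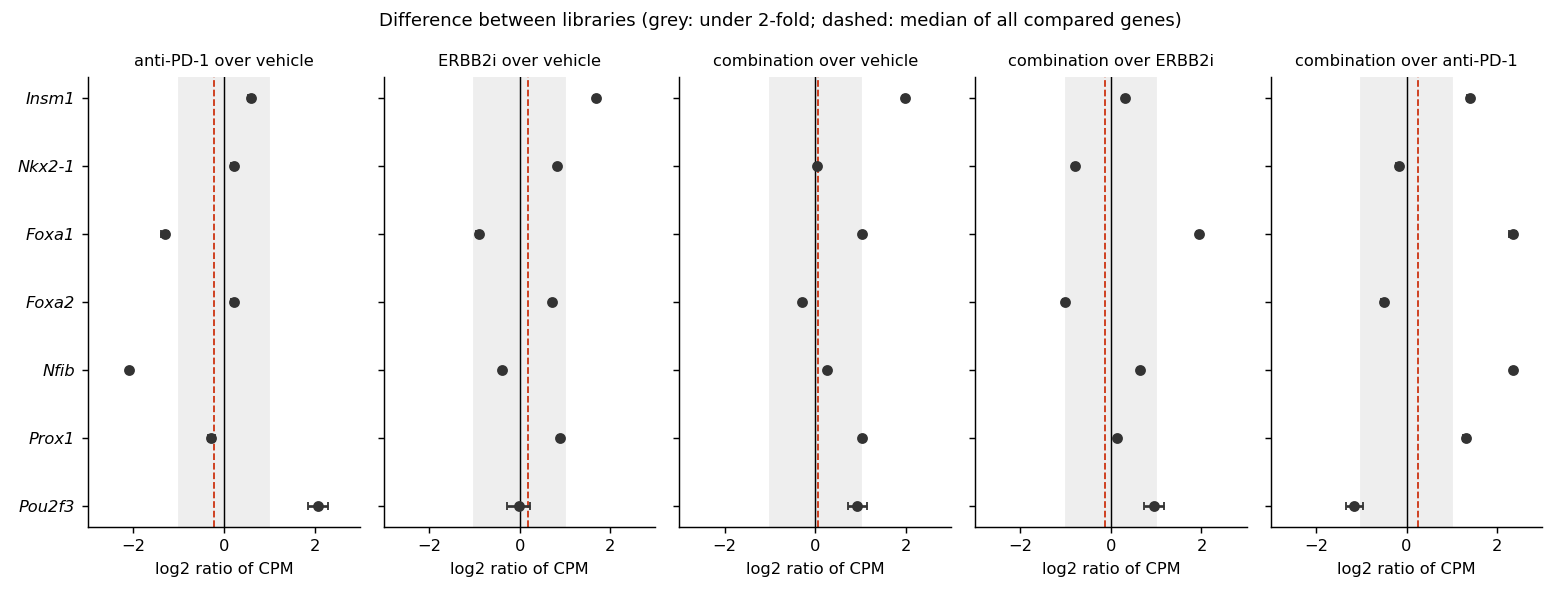
Log2 ratio of CPM between libraries (x axis) for the members (y axis) in the comparisons named above each panel, with exact 95% counting intervals. The grey band marks differences under 2-fold, the dashed line is the median of all compared genes, and Neurog3, at 7.74 or more in the combination, lies beyond the axis. Foxa1 lies at -1.31 for anti-PD-1 over vehicle and at 1.94 for the combination over ERBB2i.

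Nfib differed together with its chromosomal neighbours. Among the 20 nearest compared genes on each side, the median log2 ratio of anti-PD-1 over vehicle was -1.12, with 21 of 40 genes lower and 5 higher by 2-fold, while the median of all compared genes of chromosome 4 was -0.08. In the combination against anti-PD-1 the median was 1.47, with 26 of 40 genes higher, against 0.25 for the chromosome. The window reached from 18.9 megabases before Nfib to 6.32 megabases after it, and the genes that follow were chosen after their values were seen. Within 1.5 megabases, Lurap1l measured 471, 24.4, 69.9 and 253 CPM in vehicle, anti-PD-1, ERBB2i and the combination, Mpdz 159, 17.1, 57.2 and 236, and Zdhhc21 148, 33.6, 77.2 and 416. All 3 were lowest in anti-PD-1 and next lowest in ERBB2i, as Nfib was, but Lurap1l was higher in vehicle than in the combination and so differed from Nfib in order. Psip1, which encodes a chromatin-tethering protein, lies 1.07 megabases beyond Nfib and followed another pattern, with 4414 CPM in vehicle and 1176, 1315 and 1191 CPM in anti-PD-1, ERBB2i and the combination.

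Genes near Nfib also varied with it from cell to cell. Here the neighbours were the 20 nearest genes on each side seen in at least 5% of cells of the library. These 40 genes were therefore not all the same as those above. Over the tumour cells of vehicle, the correlation with Nfib was 0.56 for Psip1, 0.50 for Lurap1l, 0.35 for Zdhhc21, 0.35 for Mpdz and 0.34 for Snapc3. In vehicle 12 of the 40 neighbours had a correlation of 0.1 or more, where 2.05% of 9970 genes did. In the combination 5 did, where 0.519% of 8663 genes did. The highest were Zdhhc21 with 0.27 and Mpdz with 0.24, and Psip1 was at 0.04. In ERBB2i 1 of the 40 did, Elavl2 with 0.11, and in anti-PD-1 0 did, with 0.07 for Jun as the highest value there. Covariation was not limited to the neighbours. Igfbp5, which encodes a binding protein of insulin-like growth factors and is not among the 40 neighbours, was the gene most like Nfib in the combination, with 0.28, and had 0.41 in vehicle, 0.14 in ERBB2i and 0.08 in anti-PD-1. DNA copy number was not measured, and its part in this pattern was not tested. The antisense gene Gm11266 measured 177, 22.0, 87.8 and 245 CPM. It overlaps Nfib in the GENCODE gene annotation, which is of another build. On the GRCm38.p6 coordinates used here it starts at 82507989, just beyond the end of Nfib. Where the genes overlap, their reads cannot be told apart if strand was ignored.

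**Figure D4:**
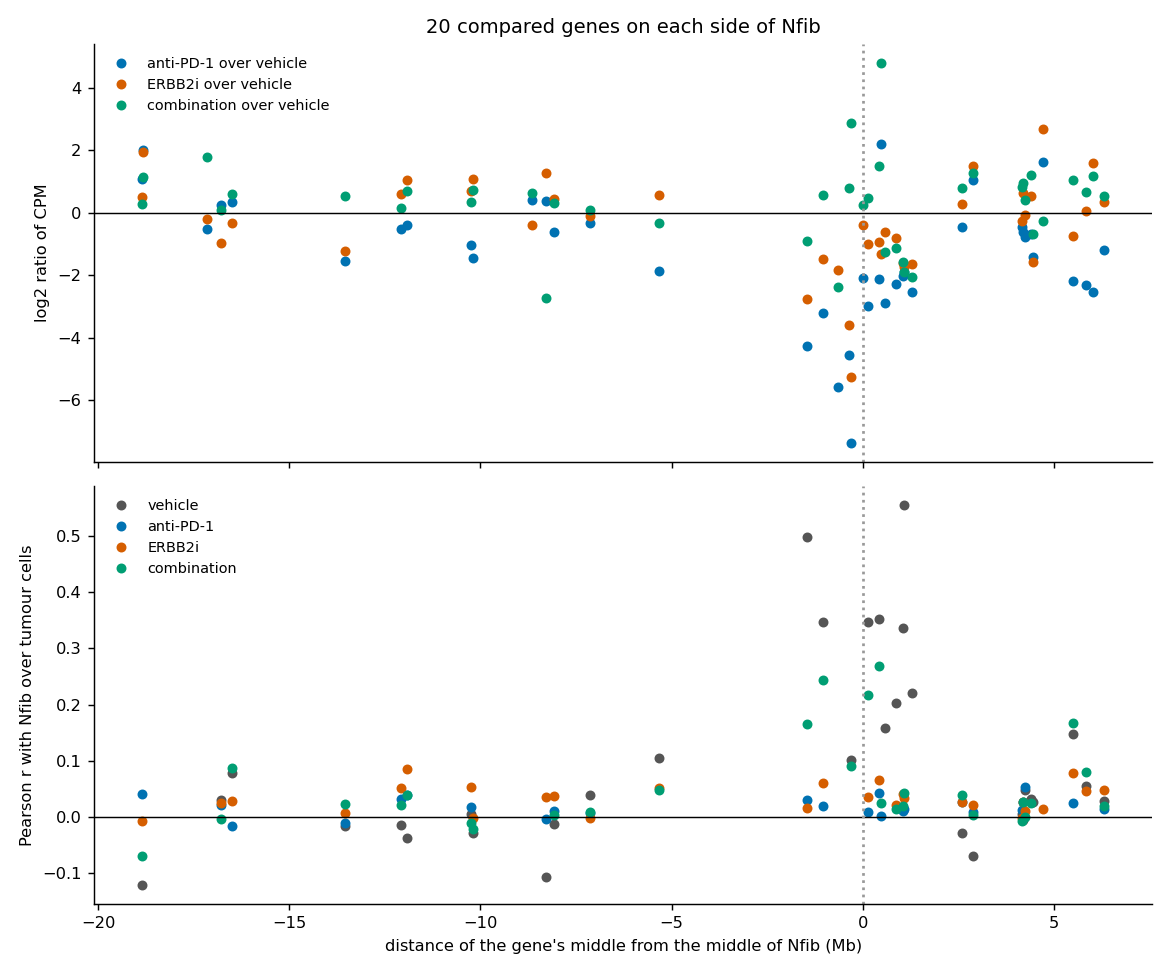
The 20 compared genes on each side of Nfib by distance from it in megabases (x axis). Upper panel, log2 ratio of CPM of each library over vehicle, and lower panel, Pearson correlation of each gene with Nfib over the tumour cells of each library. Genes within 1.5 megabases were mostly lower in anti-PD-1 than in vehicle. Their correlations with Nfib reached 0.56 in vehicle, 0.27 in the combination and at most 0.04 in anti-PD-1.

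Foxa1, Neurog3 and Pou2f3 lay far from the median of their neighbours. For Foxa1 in the combination against ERBB2i, the window had a median of -0.13 beside the 1.94 of Foxa1. For Neurog3 it had 0.03 beside 7.81. For Pou2f3 in anti-PD-1 against vehicle it had -0.43 beside 2.07. Insm1 and Foxa2 both lie on chromosome 2, and in ERBB2i against vehicle their windows had medians of 0.79 and 0.81, with 14 and 15 of 40 genes higher by 2-fold, against 0.37 for the chromosome. The Foxa2 ratio of 0.72 was near that of its neighbours, and the Insm1 ratio of 1.68 was above it. In the combination against ERBB2i the Foxa2 window had a median of -0.58, with 9 of 40 genes lower and 2 higher, beside the -1.01 of Foxa2 and -0.21 for the chromosome.

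Co-detection of the members in single cells was weak. In cells thinned to 1000 UMIs a vehicle cell held a UMI of 1.53 members on average, an anti-PD-1 cell 1.08, an ERBB2i cell 1.88 and a combination cell 2.10. No UMI of any member was seen in 8.87%, 30.2%, 7.31% and 3.48% of cells. All 6 of Insm1, Nkx2-1, Foxa1, Foxa2, Nfib and Prox1 were seen together in 0, 0, 5 and 17 cells. At 1000 UMIs per cell a gene that a cell expresses is often not sampled, so a cell without a UMI may still express the member.

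Among the 6 neuroendocrine-lineage members, the largest log2 odds ratios of 2 members were found in anti-PD-1. Foxa2 was seen in 23.0% of 456 cells with Prox1 and in 16.5% of the cells without it, a log2 odds ratio of 0.60. Insm1 was seen in 16.8% of 922 cells with Nkx2-1 and in 12.3% without it, a ratio of 0.53. In ERBB2i the pair of Nfib and Prox1 had 0.40, with Prox1 in 21.5% of cells with Nfib and 17.2% without. A single pair of members was seen together less often with intervals apart. In the combination, Foxa2 was seen in 13.6% of 14619 cells with Nfib and in 15.7% of those without it. Taken the other way, Nfib was seen in 85.6% of cells with Foxa2 and 87.6% of those without it, and these intervals overlapped slightly. No pair of members had a positive difference with intervals apart in more than 2 of the 4 libraries.

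**Figure D5:**
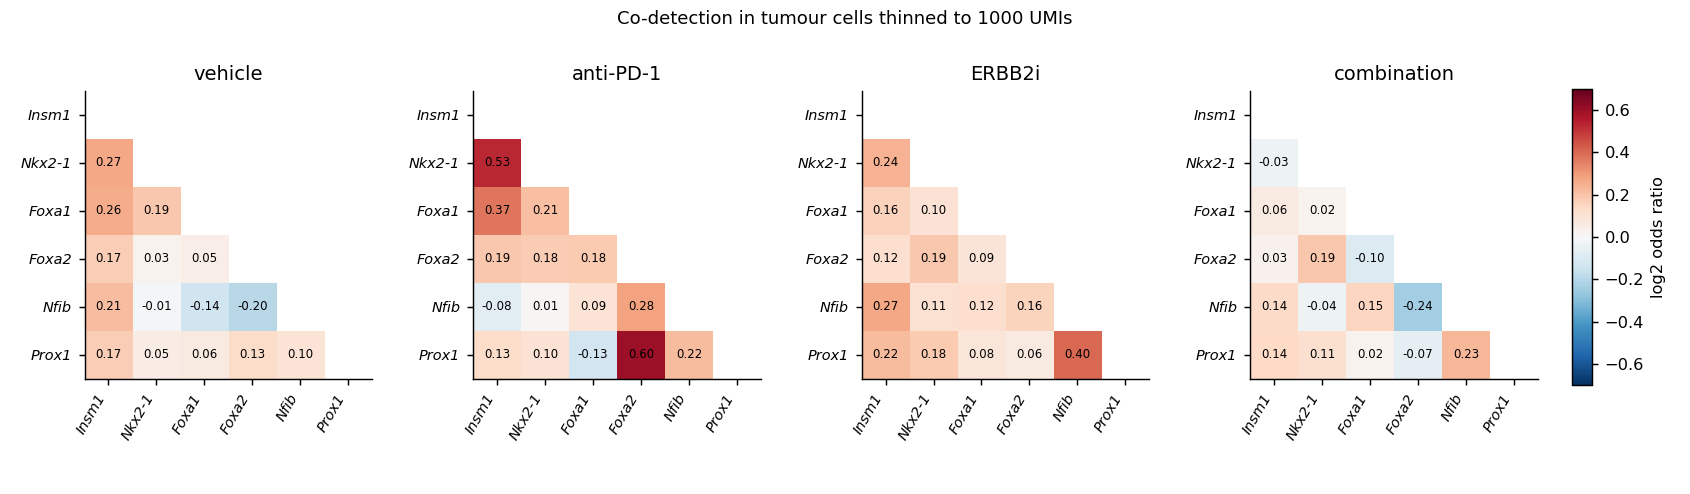
Log2 odds ratio of co-detection for pairs of the 6 neuroendocrine-lineage members (x and y axes) in tumour cells thinned to 1000 UMIs, with 1 panel per library. Red marks pairs seen together more often and blue less often than in cells without the partner. Values run from -0.24 for Foxa2 and Nfib in the combination to 0.60 for Foxa2 and Prox1 in anti-PD-1.

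Across cell states, Nkx2-1 and Prox1 moved in opposite ways with the cell cycle. Cycling cells held at least 2 thinned UMIs of Mki67, Top2a, Cenpf and Cdk1 and made up 38.8%, 45.2%, 55.9% and 40.8% of the cells of vehicle, anti-PD-1, ERBB2i and the combination. The Nkx2-1 share was higher in cycling than in other cells by 3.23, 2.18, 2.03 and 1.42 percentage points, and the Prox1 share was lower by 2.73, 1.56, 1.90 and 2.77 points. Each sign was the same in 4 of 4 libraries, and the intervals were apart for Nkx2-1 in vehicle alone and for Prox1 in vehicle, ERBB2i and the combination. Neurog3 in the combination was seen in 1.92% of cycling and 3.78% of other cells, and in 5.07% of 3454 cells with at least 2 keratin UMIs against 2.49% of the rest. Keratin cells of the combination also held Foxa2 less often, at 10.7% against 14.6%. In the 428 anti-PD-1 cells with a Hes1 UMI, a Notch response gene, the intervals of all members but Yap1, which was not compared here, overlapped those of the cells without.

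The wider neuroendocrine regulators also differed between libraries. Of 24 neural and neuroendocrine transcription factors, 11 were compared in anti-PD-1 against vehicle, where 0 were higher and 4 were lower by 2-fold, beside 8.75% and 15.6% of all genes. In ERBB2i 5 were higher and 3 lower of 13, beside 19.6% and 6.59% of all genes, and in the combination 4 were higher and 2 lower of 12, beside 16.1% and 8.74%. Against ERBB2i the combination had 5 higher and 2 lower of 13, beside 10.2% and 14.9%, and against anti-PD-1 5 higher and 1 lower of 12, beside 23.0% and 8.56%. The medians of the list were -0.16, 0.63, 0.67, 0.33 and 0.52, beside -0.23, 0.18, 0.06, -0.13 and 0.26 over all genes. St18, a zinc finger factor of the Myt family, measured 99.0, 34.7, 50.5 and 294 CPM in vehicle, anti-PD-1, ERBB2i and the combination and so had the same order of libraries as Foxa1 and Nfib. Pou3f2, a neural POU factor, was at 65.2 CPM in ERBB2i and below 1 CPM in the other libraries.

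Several factors that act downstream of Neurog3 in the pancreas were at or near 0. Neurod1 and Pax4 had 0 UMIs in all 4 libraries, Rfx6 had 0 or 1 and Nkx2-2 0 to 7, with the limit given above for Neurod1. Of 16 endocrine progenitor genes, 3 were higher and 2 lower by 2-fold in the combination against vehicle among 10 compared, beside 16.1% and 8.74% of all genes. Against ERBB2i 4 were higher and 3 lower among 12, beside 10.2% and 14.9%, and against anti-PD-1 2 were higher and 4 lower among 11, beside 23.0% and 8.56%. In ERBB2i against vehicle 6 were higher and 1 lower among 12, beside 19.6% and 6.59%. In anti-PD-1 against vehicle 3 were higher and 3 lower among 11, beside 8.75% and 15.6%. Nkx6-1 measured 0.236, 11.8, 25.1 and 0.0449 CPM and was lowest in the library with Neurog3.

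Lung differentiation genes that Nkx2-1 and the Foxa factors are known to regulate were compared as well. Of 11 genes, 5 were higher and 1 was lower by 2-fold in the combination against vehicle among 9 compared, beside 16.1% and 8.74% of all genes, and 6 were higher and 0 lower against ERBB2i among 9, beside 10.2% and 14.9%. Against anti-PD-1 6 were higher and 0 lower among 8, beside 23.0% and 8.56%. In anti-PD-1 against vehicle 0 were higher and 2 lower among 4, beside 8.75% and 15.6%. In ERBB2i against vehicle 1 was higher and 1 lower among 5, beside 19.6% and 6.59%. Genes compared only where the combination took part reached the minimum of UMIs through its counts. The numbers of higher genes there were thus partly set by that minimum. Sftpc, which encodes surfactant protein C, measured 702 CPM in vehicle cells, 2.23 in anti-PD-1 cells, 10.8 in ERBB2i cells and 441 in combination cells, low in the same libraries as Foxa1. In tumour cells of the combination the airway secretory gene Scgb1a1 reached 29.2 CPM, and RNA from normal lung cells in the tumour barcodes was not tested as a source. Of the family relatives Foxa3, Nfia, Nfic, Nfix, Pou2f1, Pou2f2 and Prox2, 6 were compared. None was lower by 2-fold in any comparison. Nfia and Pou2f1 were higher in ERBB2i against vehicle, Nfix, Pou2f1 and Pou2f2 were higher in the combination against anti-PD-1, and 0 were past 2-fold in the other 3 comparisons. Nfix, another nuclear factor I gene, measured 477, 247, 684 and 607 CPM, so it was lowest in the same library as Nfib.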

How the data were processed

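Tumour samples were dissociated and captured on a microfluidic SCOPE-chip, and CeleScope made the count matrices, per the methods of the study. The submitters' processing notes also name Cell Ranger, Scanpy and the build mm10 without a role. The deposited values are raw UMI counts per gene and barcode, with no normalisation by the authors, and no source used here names the strand setting of the counting.

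The 5 matrices held 86735 barcodes. Barcodes over 8% mitochondrial UMIs, with 150 genes or fewer, or over 3 (mitochondrial) or 5 (other measures) median absolute deviations from the median of their library were removed, leaving 73349. Doublets were removed with Scrublet in Scanpy 1.11.5, at a fixed score of 0.25 where the automatic threshold marked under 0.5% of barcodes, leaving 71190. Total UMIs per deposited library ranged from 21624506 to 88497833. Counts were summed over tumour cells and scaled to CPM. Log2 ratios have exact conditional 95% intervals, and a difference of 2-fold or more was taken as past the limit, for genes with at least 50 UMIs. Thinning drew 1000 UMIs per cell without replacement, which left out 75, 87, 1078 and 778 shallower tumour cells of vehicle, anti-PD-1, ERBB2i and the combination. Correlations used log1p of UMIs per 10000, over genes seen in at least 5% of cells.

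All 9 members are named, listed genes are named when a library held at least 100 UMIs or when they are at or near 0, and the 3 most correlated genes of a member when the correlation reached 0.1. The members and lists were chosen with earlier results of these data known. Some of the listed genes are not reported here. TMM factors came from edgeR 4.0.16 in R 4.3.3. Code was tested on simulated data.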

Additional observations from a re-analysis of the deposited data

Results flagged for a closer look

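Foxa1 moved in opposite directions when anti-PD-1 was given alone and when it was added to ERBB2i. The log2 ratio was -1.31 for anti-PD-1 over vehicle and 1.94 for the combination over ERBB2i. With 1 library per group, the difference between these ratios was not tested.

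The library labelled as the combination in response held 0 tumour cells among the 8447 barcodes left after the filters, and so entered no comparison of tumour cells. It held 8888 immune barcodes among all 10137 deposited barcodes, counted without the filters. Pou2f3 was nevertheless present there at 9.53 CPM over all barcodes (206 UMIs, 195 of them in immune barcodes), above the 5.20 CPM of all vehicle barcodes, which are mostly tumour cells. Over immune barcodes alone it was at 9.76 CPM, against 3.89 in vehicle and 25.9 in anti-PD-1. Yap1 was at 0.601 CPM (13 UMIs), above 0.233 CPM in vehicle. Nkx2-1, Foxa1, Foxa2 and Neurog3 had 0 UMIs in this library, Prox1 had 1, Insm1 19 and Nfib 31.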

How the results depend on the processing

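The number of members past 2-fold in ERBB2i over vehicle was 1 and became 2 with TMM scaling, with immune barcodes subtracted and with a minimum of 20 UMIs. In the combination over vehicle it was 4 with Neurog3 counted and became 2 with TMM scaling and with immune barcodes subtracted. The other 35 of 40 alternative counts stayed within 1.5 times. Of the 38 ratios of members, none changed sign past 2-fold. Foxa1 in the combination over vehicle (0.93 to 1.04 over the alternatives) crossed 2-fold in 3 of 6 settings, Prox1 (0.87 to 1.05) in 2, Foxa2 in the combination over ERBB2i in 4, Foxa1 in ERBB2i over vehicle with TMM scaling (-1.12), and Pou2f3 in ERBB2i over vehicle (-2.38) where its immune background was subtracted and in the combination over ERBB2i both there (3.34) and with TMM scaling (1.12). Subtraction gave no value for Pou2f3 in both comparisons with anti-PD-1 and for Neurog3 in the combination over anti-PD-1. TMM scaling moved the ratios, other than the bound for Neurog3 in the combination over anti-PD-1, by 0.12, -0.21, -0.043, 0.17 and -0.17 on the log2 scale in the order of the comparisons. Leaving out a replicate was not possible with 1 library per group. No paired analysis was possible because the groups share a single replicate number. Yap1 in all comparisons, and Neurog3 in those without the combination, had fewer than 50 UMIs and were not compared. What limited these counts was not tested.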
